A study of Mus musculus with 16 samples.

Results

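Heterotrimeric G proteins and their RGS regulators are described here across whole skin and sorted hair follicle stem cells of control and GRK2 eKO mice. The members were taken by name: every row of both deposited tables whose mouse symbol marks a G protein alpha subunit (Gna), beta subunit (Gnb) or gamma subunit (Gng), or a regulator of G protein signalling (Rgs). The rule found 58 genes among the 55305 rows that both tables share. They comprise 16 alpha, 5 beta and 12 gamma subunits, 2 gamma pseudogenes, 21 Rgs genes, and Rgs7bp and Rgs9bp, which encode membrane anchors of RGS proteins. The 16 libraries are bulk RNA sequencing of C57BL/6 mice. Back skin was taken at 8 months for 5 libraries labelled Control and 5 labelled GRK2 eKO. The hair follicle stem cells (HFSC) were bulge cells sorted by flow cytometry for CD34 and α6-integrin, with 3 Control and 3 GRK2 eKO libraries. The HFSC labels give 18 months and the text describing the series gives 8 months, so their age is not settled here. The labels do not spell out eKO, and name neither a Cre driver, nor the sex of the mice, nor whether the libraries of a group came from separate animals.

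A heterotrimeric G protein is an alpha subunit that binds GDP or GTP, held to a beta-gamma pair. An activated receptor loads the alpha subunit with GTP, the alpha subunit and the pair then separate and act on enzymes and channels, and RGS proteins end the signal by speeding GTP hydrolysis on the alpha subunit. GRK2 is a kinase that marks active receptors for shutdown; it also carries an RGS homology domain that binds alpha subunits of the Gq family and a domain that binds beta-gamma. In skin, the Gs branch acts through cyclic AMP and protein kinase A and is known for restraining the proliferation of follicle and epidermal stem cells.

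The libraries held 8.21 to 16.4 M reads in genes in skin and 6.43 to 9.39 M in HFSC. Values are normalised read counts, that is gene reads divided by a size factor for the library. Grk2 itself ran from 1099.7 to 1492 in control skin and from 979.7 to 1224 in eKO skin (log2 fold change -0.22 ± 0.10 SE, adjusted p = 0.343), and from 121 to 144 against 104 to 122 in HFSC (-0.24 ± 0.23 SE, adjusted p = 0.501); in both tissues the groups overlapped, and which part of the gene the allele removes is not given in the labels. In HFSC the summed bulge markers were 160462 to 164211 in controls and 140723 to 160762 in eKO, and of 9 bulge markers tested Itga6 rose by 0.58 ± 0.09 on the log2 scale (adjusted p = 0.00051), while Lgr5 fell by 0.94 ± 0.07 (2.85e-06) and Krt24 fell by 0.84 ± 0.11 (0.000264). Several other sums moved with genotype in HFSC: endothelium 56.0 to 71.5 against 1206 to 1370 (8 of 10 markers past the threshold, all higher, with Cldn5 at 0 in every library), sebaceous gland 3527 to 3735 against 13581 to 14197 (7 of 10 higher), differentiated epidermis 2645 to 4481 against 16697 to 17512 (5 of 7 higher, 1 lower), hair matrix 885 to 1083 against 3022 to 3213 (9 of 20 higher), and Y-linked genes 2339.6 to 2476 against 704 to 831 (4 of 4 lower). In bulk RNA a change in the number of cells of a type and a change in RNA per cell cannot be told apart, and sex composition and genotype cannot be told apart in HFSC. In skin, control replicate 5 and eKO replicate 3 were near 0 for the Y-linked genes, and the others were not.

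Control HFSC expressed one dominant gene in most subunit classes. Per length and depth (reads per kilobase of exon per M reads), Gnb1, the most widely used beta subunit, stood at 342 ± 29.8 (SD, n = 3), the highest beta gene among those that can be judged, Gnb2 being listed at 0. Among the inhibitory Gi class, whose alpha subunits lower cyclic AMP, Gnai3 led at 123 ± 6.43, followed by Gnai1 at 42.6 ± 15.1 and Gnai2 at 9.80 ± 1.22, and these levels were apart by more than their SDs. Gnaq at 79.0 ± 2.76 and Gna11 at 53.1 ± 3.85, which activate phospholipase C beta, held most of the Gq class. Gna13, of the G12 class, stood at 36.5 ± 2.81 against 4.60 ± 1.36 for Gna12. Among the gamma subunits with reads, Gng12 led at 87.6 ± 6.42, and Gng10 followed at 22.2 ± 3.19. The RGS genes were lower: Rgs19 of the RZ subfamily led at 13.7 ± 2.11, then Rgs12 at 6.17 ± 1.64, Rgs11 at 3.78 ± 0.668 and Rgs2 at 3.12 ± 0.217, and the last pair did not differ beyond their SDs.

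In control skin Gnai3, Gna13, Gnb1 and Gng12 led the genes of their classes that had reads, as in HFSC. Gnai3 stood at 93.7 ± 11.6 (SD, n = 5), with Gnai2 at 45.1 ± 7.18 and Gnai1 at 38.8 ± 12.2, a pair whose SDs overlap. Gng12 stood at 62.6 ± 7.10 and Gnb1 at 50.5 ± 1.28. Gna11 (21.1 ± 2.01), Gnaq (20.3 ± 2.79) and Gna15 (16.7 ± 1.04) were close, and the order of the first pair lies within their SDs. Rgs5, known as a marker of pericytes, led all RGS genes at 43.5 ± 16.1 and made up 65.4% of the R4 signal. Its normalised counts were 1112 to 3749 over the 10 skin libraries, while in HFSC it was at 0 in 5 libraries and at 9.998 in control replicate 3. The leaders of the other classes were Gna13 (21.0 ± 2.18), Rgs20 (8.77 ± 3.36), Rgs12 (8.09 ± 1.62), Gnas (2.80 ± 0.81), Rgs9bp (1.33 ± 0.66) and Rgs9 (1.31 ± 0.768). For the RGS families these orders are not settled, since Rgs19 (7.80 ± 1.71), Rgs10 (7.86 ± 2.35), Rgs7bp (1.17 ± 0.62) and Rgs11 (0.995 ± 0.214) lie within the SDs of Rgs20, Rgs12, Rgs9bp and Rgs9. In normalised counts, the control libraries of skin held 2976 to 4336 for Gnai3, 3009 to 4121 for Gng12, 1394 to 1813 for Gna13, 281 to 728 for Rgs20 and 46.4 to 165 for Rgs9, so Rgs20 and Rgs9 spread over a wider fold range between libraries than these subunits. The tables were normalised separately, so no test was made between tissues.

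**Figure D1:**
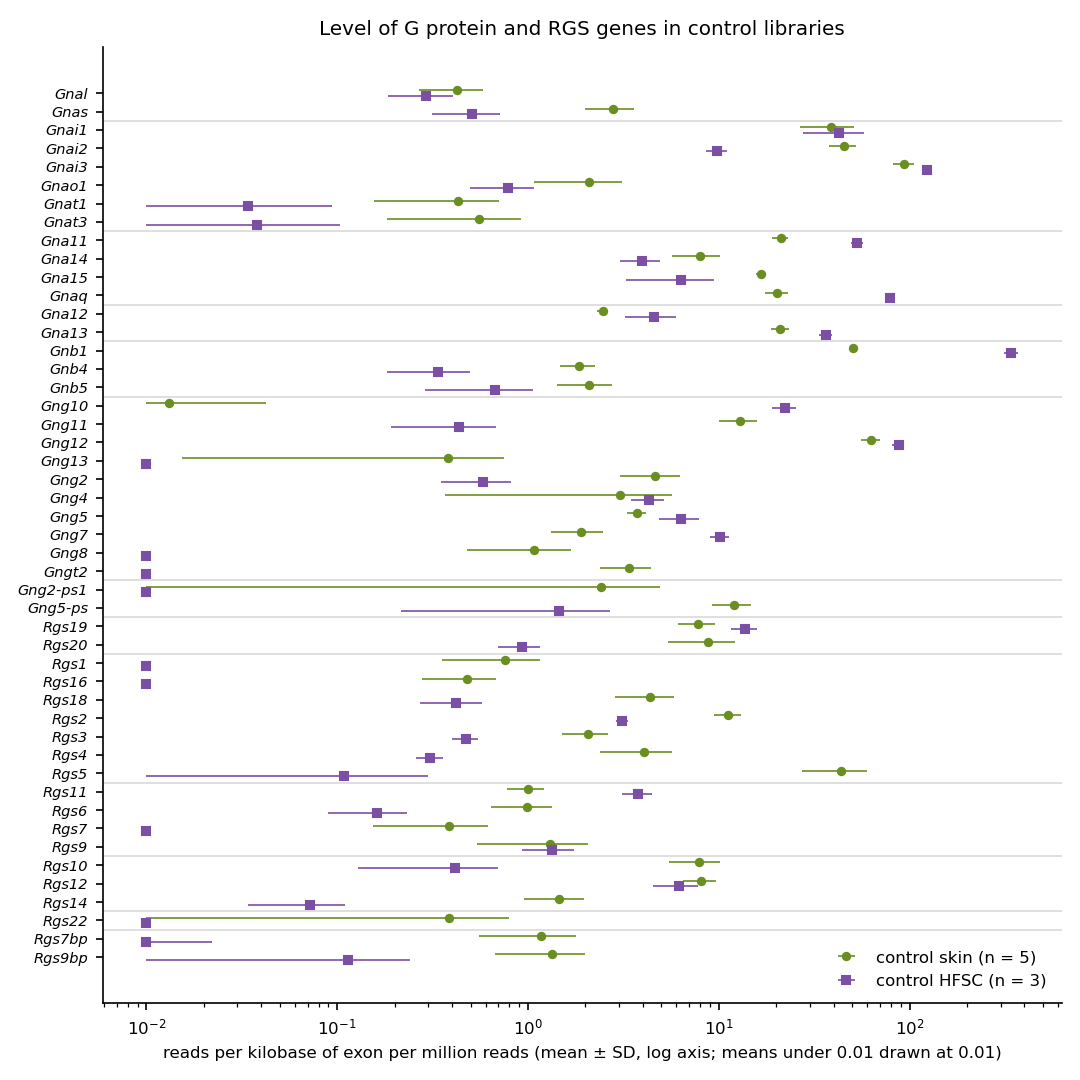
Level of the members in control libraries, as reads per kilobase of exon per M reads on a log axis (mean ± SD; circles skin, n = 5; squares HFSC, n = 3), for members with a mean of at least 0.3 in one of the tissues, ordered by class. Gnb1 reaches 342 in HFSC and 50.5 in skin, and Rgs5 reaches 43.5 in skin and lies near 0.1 in HFSC.

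Some members cannot be judged from these tables. Gnb2, Gnaz, Gng3, Gngt1 and Rgs21 were listed at 0 in every library of both tissues. The widely expressed Gapdh was also low, at 252 or less in every library, and an exact 0 can therefore reflect how reads were counted and not the level of the RNA. Gnas, which encodes the stimulatory alpha subunit Gs, ran from 206 to 545 in skin and from 26.9 to 79.9 in HFSC, and 22% of its exon bases lie opposite exons of other genes. Gng10 had 0.934 in control replicate 4 of skin and 0 in the other skin libraries against 164 to 227 in HFSC, and 72.0% of its exon bases are shared with Gm20503 on the same strand. Whether the counting used strand is not given in the sources used here, so these genes, the antisense overlaps of Gna12 (13.3%), Gng13 (51.6%) and Gng2 (20.4%), and the pseudogenes Gng5-ps and Gng2-ps1 are uncertain to that extent.

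In HFSC, 13 of the 32 members tested passed the threshold (adjusted p under 0.05): 10 were higher in eKO and 3 were lower. Rgs4, Rgs7bp and Gng11 were barely read in control cells and clearly read in eKO cells. The inhibitory alpha genes Gnai1, Gnai2 and Gnai3, the Gq class gene Gna11, the beta genes Gnb1 and Gnb5, and Rgs20 also rose, while Gng4, Gng7 and Gna12 fell. A member was tested where at least 3 libraries of the table held a value of 10 or more; 15 of the 58 were listed at 0 throughout and 11 were below that level. Of all 13784 genes tested, 19.4% were called, 10.7% as higher and 8.74% as lower, against 40.6% of the members tested. The member share is not evidence on its own, since some members passed the filter through the libraries of a single group. These were 5 (Gnb5, Gng11, Rgs4, Rgs10 and Rgs7bp) through the eKO libraries only and 3 (Gnal, Gng2 and Gng4) through the controls only. Of the 24 members that passed in both groups, 8 were called. The 19.4% of all genes was not split in this way, so it is no matched background for these 24. The control and eKO values did not overlap for 17 of the 32 (53.1%), against 36.3% of all genes tested. Members that passed the filter through a single group are among these 17, so this share is not evidence on its own either. The median log2 fold change was 0.23 over the members tested and -0.03 over all genes.

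**Figure D2:**
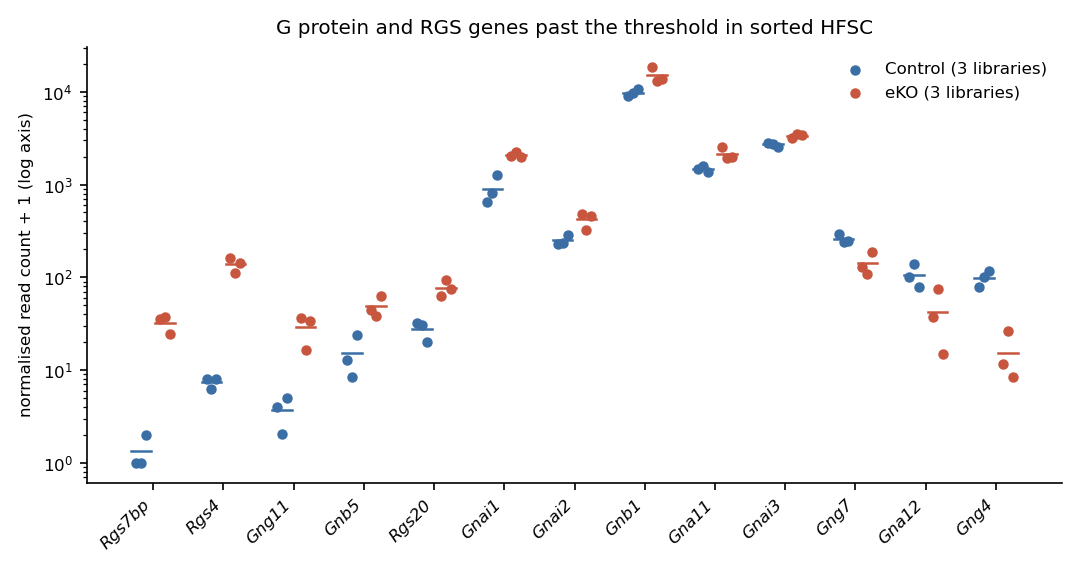
Normalised read count plus 1 (log axis) in each HFSC library for the 13 members past the threshold, ordered by log2 fold change; points are libraries (3 Control, 3 eKO) and bars are means. The 2 groups are separate for every gene shown, and Rgs7bp, Rgs4 and Gng11 in controls lie at 6.999 or less before 1 is added.

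Among the RGS genes, Rgs4 (ENSMUSG00000038530) changed most clearly. Rgs4 belongs to the R4 subfamily, small RGS proteins that act on Gi and Gq alpha subunits. Its values were 6.98, 5.26 and 6.999 in the controls and 161, 111 and 143 in eKO. All 3 eKO libraries were far above all controls, with means of 6.41 ± 0.999 and 138 ± 25.7 (SD, n = 3). The log2 fold change was 4.22 ± 0.43 (SE, adjusted p = 2.3e-05). Per length, Rgs4 went from 6.95% of the R4 signal in controls to 69.7% in eKO. Rgs20, an RZ protein that acts on Gi class subunits, had 30.9, 29.5 and 19.0 in controls and 61.4, 93.2 and 73.5 in eKO. Its log2 fold change was 1.498 ± 0.38 (adjusted p = 0.0159), and the call was lost without control replicate 3 (adjusted p = 0.0617) or eKO replicate 2 (0.052). Rgs19 (0.52 ± 0.18, adjusted p = 0.063), Rgs2 (-0.33 ± 0.29, 0.47) and Rgs12 (0.06 ± 0.19, 0.859) did not pass.

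Rgs7bp and Gnb5, which serve the same RGS subfamily, both rose, while the R7 RGS genes tested, Rgs9 and Rgs11, were not called. The R7 proteins RGS6, RGS7, RGS9 and RGS11 are stable only in complex with the atypical beta subunit Gβ5, the product of Gnb5, and Rgs7bp tethers these complexes to the membrane. Rgs7bp (ENSMUSG00000021719) had 0, 0 and 1.00 in controls and 34.9, 36.2 and 23.4 in eKO, with the eKO libraries apart from all controls. With 1 read in all controls, the eKO mean was at least 10.3-fold higher, taking 3 reads per library as the floor, and the fitted log2 fold change of 4.66 ± 0.89 (adjusted p = 0.00285) depends on the pseudocount. Gnb5 had 12, 7.36 and 23 against 44, 37.3 and 61.8 (1.79 ± 0.53, adjusted p = 0.0318). The Gnb5 call was lost without control replicate 1 (adjusted p = 0.092) or 2 (0.118) and without eKO replicate 1 (0.058) or 3 (0.105), and with no filter on low values (0.0745). The R7 genes Rgs11 (-0.35 ± 0.34, adjusted p = 0.516) and Rgs9 (0.15 ± 0.37, 0.816) were tested and not called, and Rgs7 was at 0 in every HFSC library. The R7 gene Rgs6 and the anchor gene Rgs9bp were below the filter and were at 0 in every eKO library. Rgs7bp and Gnb5 had passed the filter through the eKO libraries only.

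Rgs6 and Rgs18, below the filter on low values, were read in every control library and in no eKO library. Rgs6, an R7 gene, had 5.98, 15.8 and 11 in controls and 0 in the 3 eKO libraries, which is 32 reads against 0 and at least 3.74-fold lower in eKO. Rgs18, an R4 gene known from platelets and other blood cells, had 7.98, 5.26 and 4.00 against 0 in each eKO library, 17 reads against 0 and at least 1.97-fold lower. Both were named for these zeros after their values were seen, and both passed in the fit with no filter, where 11.3% of 21521 genes did. Rgs9bp, the anchor of RGS9, had 11, 4.21 and 0 in controls and 0 in eKO.

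The annotated start regions of Rgs4, Rgs7bp and Gnb1, which rose, and Gng4, which fell, are shown. They were chosen after the calls were known, from the called members whose window holds a short motif, so that they share it is not a finding; the windows of the called members Gnai1, Gna11, Gna12 and Gnb5 do not hold it. The windows are RefSeq promoter windows on build GRCm38.p6, 250 bases before to 50 bases after the start, written 5′ to 3′ on the gene's strand. Capitals mark TGACG, the half-site bound by cyclic AMP response element binding proteins, or its reverse complement CGTCA. Positions are chr1:169747593-169747892, minus strand, for Rgs4, chr13:105054881-105055180, minus strand, for Rgs7bp, chr13:13784057-13784356, plus strand, for the second of 2 windows of Gng4, and chr4:155491111-155491410, plus strand, for Gnb1.
Rgs4: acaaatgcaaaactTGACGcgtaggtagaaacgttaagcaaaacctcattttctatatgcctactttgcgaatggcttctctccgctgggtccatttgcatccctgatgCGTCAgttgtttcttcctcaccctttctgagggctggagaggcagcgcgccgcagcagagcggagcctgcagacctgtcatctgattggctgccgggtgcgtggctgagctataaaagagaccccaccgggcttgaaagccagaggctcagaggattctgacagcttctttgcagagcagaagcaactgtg
Rgs7bp: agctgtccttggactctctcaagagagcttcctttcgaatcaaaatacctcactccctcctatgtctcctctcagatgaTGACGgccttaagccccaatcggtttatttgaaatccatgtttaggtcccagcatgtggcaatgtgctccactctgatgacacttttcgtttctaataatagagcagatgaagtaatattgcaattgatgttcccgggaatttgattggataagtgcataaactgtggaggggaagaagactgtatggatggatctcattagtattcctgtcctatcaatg
Gng4: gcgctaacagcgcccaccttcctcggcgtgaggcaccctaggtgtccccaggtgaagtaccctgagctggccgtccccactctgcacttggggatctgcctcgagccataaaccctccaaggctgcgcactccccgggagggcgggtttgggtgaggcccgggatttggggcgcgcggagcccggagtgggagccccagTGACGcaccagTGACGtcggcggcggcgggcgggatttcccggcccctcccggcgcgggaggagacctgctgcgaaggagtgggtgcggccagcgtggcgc
Gnb1: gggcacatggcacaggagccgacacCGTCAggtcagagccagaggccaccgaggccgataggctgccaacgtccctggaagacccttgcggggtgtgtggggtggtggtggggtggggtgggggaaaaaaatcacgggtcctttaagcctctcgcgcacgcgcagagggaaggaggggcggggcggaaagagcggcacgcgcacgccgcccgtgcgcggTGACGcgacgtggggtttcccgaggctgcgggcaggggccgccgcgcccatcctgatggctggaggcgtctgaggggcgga
The Rgs4, Gng4 and Gnb1 windows each hold 2 copies and the Rgs7bp window holds 1. RefSeq gave windows for 41 of the 58 members, 54 windows in all, and none for Gng11. TGACG was searched on both strands, and every full site TGACGTCA also counts as a half-site. A half-site was found for 12 of the 41 members (29.3%) and for 23.0% of all 27025 genes with a window. Of the 10 members called in HFSC that have a window, 6 held it (Gnai3, Gnb1, Gng4, Gng7, Rgs4 and Rgs7bp), as did 6 of 31 other members. A gene counts if any of its windows holds the half-site, and another window of Gng4 and of Gng7 holds none. The other members include untested genes such as Gnb2 and Rgs21. The share over all genes called in HFSC was not taken. The full site TGACGTCA was in none of the 54 windows and in 1.79% of all windows of this length. In all, 5 motifs were searched on both strands, after the calls were known. The others were the GC box GGGCGG, in 50% of the member windows and 35.7% of all windows, the AP-1 site TGANTCA, in 7.41% and 7.81%, and the TATA box TATAAA, in 16.7% and 13.6%. The members' windows are rich in G and C, with a median of 61.5% against 52.7% over all windows. These matches describe the letters, and binding was not measured.

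Of the gamma subunits, 1 rose and 2 fell in HFSC. Gng11 (ENSMUSG00000032766), a farnesylated gamma subunit, had 2.99, 1.05 and 4.00 in controls and 35.6, 15.3 and 33.0 in eKO. That is 8 reads against 92, a ratio of 10.7 after normalisation with a 95% counting interval of 5.22 to 25.6; the log2 fold change was 2.99 ± 0.77 (adjusted p = 0.0166). The call was lost without control replicate 2 (adjusted p = 0.0576), eKO replicate 1 (0.054) or eKO replicate 3 (0.055). Gng4 (ENSMUSG00000021303) went the other way, from 76.8, 98.9 and 116 in controls to 10.6, 25.2 and 7.46 in eKO (-2.82 ± 0.48, adjusted p = 0.00133), with no overlap. Gng7, known for its pairing with the alpha subunit of Gnal in the striatum, fell from 291, 239.8 and 247 to 129.6, 109 and 187 (-0.90 ± 0.23, adjusted p = 0.0161). The Gng7 call was lost without control replicate 1 (adjusted p = 0.0859), 2 (0.0515) or 3 (0.0503). Gng12, the most abundant of the gamma genes with reads, had 2575 to 2948 in controls and 2749.8 to 3444 in eKO and was not called (0.15 ± 0.10, adjusted p = 0.341).

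The abundant alpha and beta genes that rose did so by less than 2.5-fold. Gnb1 had 9043, 9662 and 10757 in controls and 18588, 13062 and 13726 in eKO (log2 fold change 0.61 ± 0.12, adjusted p = 0.00275), with eKO replicate 1 the highest. Gnai1 had 641, 801 and 1256 against 2021, 2231 and 1995 (1.27 ± 0.19, adjusted p = 0.00048), and every eKO library was above every control. Gnai2 had 230.4, 232 and 285 against 482, 327 and 456 (0.74 ± 0.19, adjusted p = 0.0145). Gnai3, the leading Gi gene, moved least, with 2837, 2714 and 2568 against 3171, 3481 and 3442 (0.31 ± 0.09, adjusted p = 0.0213). Gna11 had 1463, 1577 and 1357 against 2547, 1914 and 1998 (0.55 ± 0.12, adjusted p = 0.00652). Its close relative Gnaq did not pass, with 3139, 3375 and 3348 against 3638, 3187 and 3259.6 (0.03 ± 0.09, adjusted p = 0.843). The Gnai2 call was lost without control replicate 1 (adjusted p = 0.0669), control replicate 2 (0.0685) or eKO replicate 3 (0.0549). The Gnai3 call was lost without any one of control replicates 1, 2 and 3 (0.0506, 0.0816 and 0.0984) or eKO replicates 2 and 3 (0.0554 and 0.0612), and with library size scaling alone (0.0623).

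The G12 class was split. Gna12 fell from 101, 139.9 and 77.0 in controls to 36.4, 74.5 and 13.8 in eKO (-1.58 ± 0.51, adjusted p = 0.0455), and the nearest libraries of the 2 groups were 77.0 and 74.5. This call rested on every library but eKO replicate 2: without control replicate 1, 2 or 3 the adjusted p was 0.124, 0.188 or 0.0742, and without eKO replicate 1 or 3 it was 0.0734 or 0.129. With edgeR it was 0.0664, and with no filter on low values 0.0793. Gna13, the more abundant gene, had 1447, 1589 and 1697 against 1625, 1506 and 1599, with overlapping groups (0.00 ± 0.10, adjusted p = 0.996). Of the Gs class, Gnas (26.9, 55.8 and 33.0 against 59.9, 61.4 and 79.9) did not pass (0.84 ± 0.38, adjusted p = 0.147).

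The calls in HFSC moved together with the marker sums given above, whose part in them was not tested. Rgs4, Rgs7bp and Gng11 were higher in every eKO library than in every control. The endothelium, sebaceous gland, differentiated epidermis and hair matrix sums were split in the same way, as were 18.9% of all genes tested. So were the leukocyte sum, given below, and the adipocyte sum. The latter ran from 2.99 to 24.2 in controls and from 51.5 to 66.0 in eKO, with 1 of its 5 markers tested, and called higher. This shared split does not tie the 3 genes to any of these cell types. The pericyte and smooth muscle sum was 1778 to 2036 in controls and 1580 to 1642 in eKO, with 1 higher (Kcnj8, at most 8 in controls and 30.7 to 56.1 in eKO, adjusted p = 0.0116) and 1 lower (Cspg4, -0.33 ± 0.10, 0.0308) of 5 tested. Des and Higd1b were at 0 in every HFSC library, Abcc9 in every control, and Pdgfrb and Myh11 in every eKO library and 2 of 3 controls. Leukocyte markers summed to 209 to 238 against 871 to 1526, with Itgam and Ms4a1 at 0 in every library. Of 4 leukocyte markers tested, Cd74 rose (2.90 ± 0.21, adjusted p = 1.31e-06) and Lyz2 fell (-2.50 ± 0.77, 0.0369), and the list median was -0.22. Melanocyte markers summed to 1888 to 2269.8 against 622 to 950.4.

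In whole skin none of the 44 members tested by limma passed the threshold, against 0.374% of all 16589 genes tested. Of the members, 2 had an unadjusted p under 0.05, a share of 4.55% where the background was 14.2%. The edgeR test also called 0 (0.326% of all genes), and DESeq2 called 1 (3.95% of all genes), Rgs9bp. Rgs9bp had 73.8, 61.5, 112, 175 and 79.8 in controls and 57.0, 48.1, 41.1, 48.7 and 51.2 in eKO. Every eKO library was below every control, the single member of the 44 for which this held (2.27%, against 4.18% of all genes tested, or 2.45% with eKO lower), and control replicate 4 was the highest. Its log2 fold change was -0.92 ± 0.27 SE, with an adjusted p of 0.164 by limma, 0.151 by edgeR and 0.0246 by DESeq2. Rgs6 had 144, 55.6, 102, 149 and 119.8 in controls and 282, 164, 287, 125 and 275 in eKO, with eKO replicate 4 inside the control range. Its log2 fold change was 0.98 ± 0.32, with an adjusted p of 0.2 by limma and 0.0558 by DESeq2. Gnat1, Gng8 and Rgs7 passed the filter through the eKO libraries only. The median log2 fold change was 0.15 over the members tested and 0.00 over all genes.

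The intervals show which skin differences remain possible. For Gnb1 the values were 2369 to 2651 in controls and 2651 to 2945 in eKO (0.15 ± 0.07, 95% interval -0.005 to 0.31 on the log2 scale). For Gnai3 the interval was -0.21 to 0.26 and for Gnaq -0.21 to 0.34, so 2-fold changes lie outside them. For Gng4 it was -0.91 to 1.38 and for Rgs22 -0.92 to 2.07, and a 2-fold rise lies inside them. In simulated data for the skin comparison, 80% of genes raised 2-fold and 71.4% of genes lowered to 0.5 were recovered, over 16471 genes tested. For HFSC, with 3 libraries a group, those shares were 48% and 50%, over 13595 genes. The simulation gave every gene in both tissues the same dispersion and left out the hair matrix variation between skin libraries. These shares therefore check the scripts and do not measure how sensitive the real comparisons were.

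**Figure D3:**
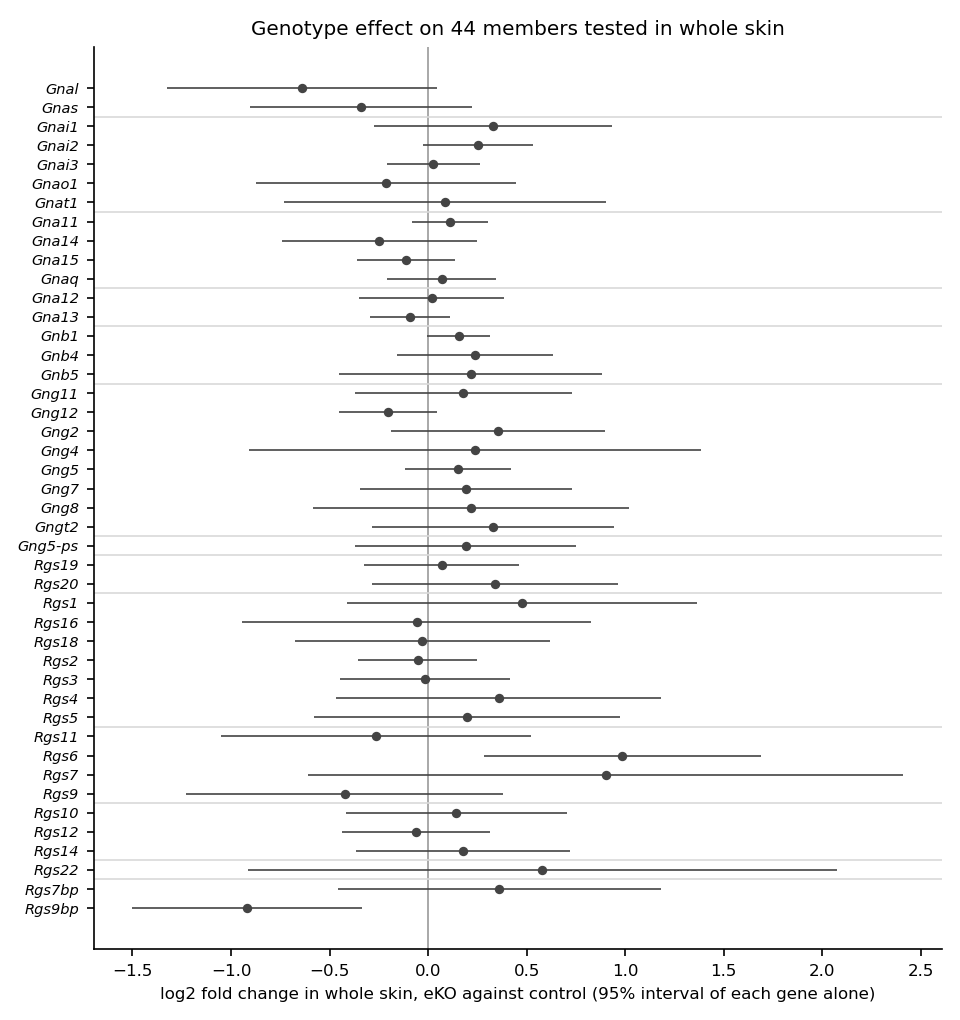
Log2 fold change of the 44 members tested in whole skin, eKO against control (5 libraries each), with the 95% interval of each gene alone, ordered by class. The intervals of Rgs6 and Rgs9bp do not include 0, and neither gene passed after adjustment over all genes.

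Whether the effect of genotype differed between HFSC and skin was tested directly for the 31 members tested in both tables. The 2 sets of libraries also differ in table, in labelled age (18 and 8 months) and in sex composition by genotype. Tissue cannot be told apart from these in the test. The difference passed for 4: Rgs4 (HFSC effect minus skin effect 3.87 ± 0.54 SE on the log2 scale, adjusted p = 0.000358), Rgs7bp (4.30 ± 0.61, 0.000392), Gng11 (2.81 ± 0.52, 0.00399) and Gng4 (-3.06 ± 0.78, 0.0301). All 4 had passed the HFSC filter through the libraries of a single group, Rgs4, Rgs7bp and Gng11 through eKO and Gng4 through the controls. Their share of the members is therefore not evidence on its own beside the share of all genes. The variance of each gene was pooled over the libraries of both tissues in this fit. The SEs of Rgs7bp and Gng11 thus lie below their SEs in HFSC alone (0.89 and 0.77). Their errors and adjusted p here may be too small. Over all 13227 genes in that fit 5.62% passed, 455 (3.44%) with a higher and 288 (2.18%) with a lower effect in HFSC, a split that became 373 and 400 when libraries were scaled by size alone. In skin the same 4 genes had overlapping groups. Rgs4 ran from 56.9 to 223 in controls and from 118 to 319 in eKO. Rgs7bp ran from 44.8 to 187 and from 56.5 to 151. Gng11 ran from 103 to 187 and from 103 to 225, and Gng4 from 36.1 to 257 and from 62.9 to 168. Gng4 is the member with opposite signs in the 2 tissues among these 4, and its fitted skin change was 0.24 ± 0.52. The Gng4 difference lost its call with edgeR (adjusted p = 0.078), without the 2 skin libraries near 0 for the Y-linked genes (0.0662), and without any one of skin control replicate 3, skin eKO replicate 2, skin eKO replicate 3, HFSC control replicates 1, 2 and 3 and HFSC eKO replicates 1 and 3 (0.0519 to 0.0712). The signs of the fitted changes were opposite in the tissues for 12 of the 31 members and the same for 19.

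The 9 other members called in HFSC did not differ between tissues past the threshold. For Gnai1 the difference was 0.94 ± 0.41 (adjusted p = 0.198), for Gnb1 0.45 ± 0.16 (0.105), for Gna11 0.43 ± 0.15 (0.111) and for Gna12 -1.60 ± 0.53 (0.088). A change that passed in HFSC and not in skin is therefore not shown to differ for these genes. Among the endothelial markers, 8 of 9 tested passed the same test, all with a higher effect in HFSC, and their part in the differences for Rgs4, Rgs7bp and Gng11 was not tested.

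**Figure D4:**
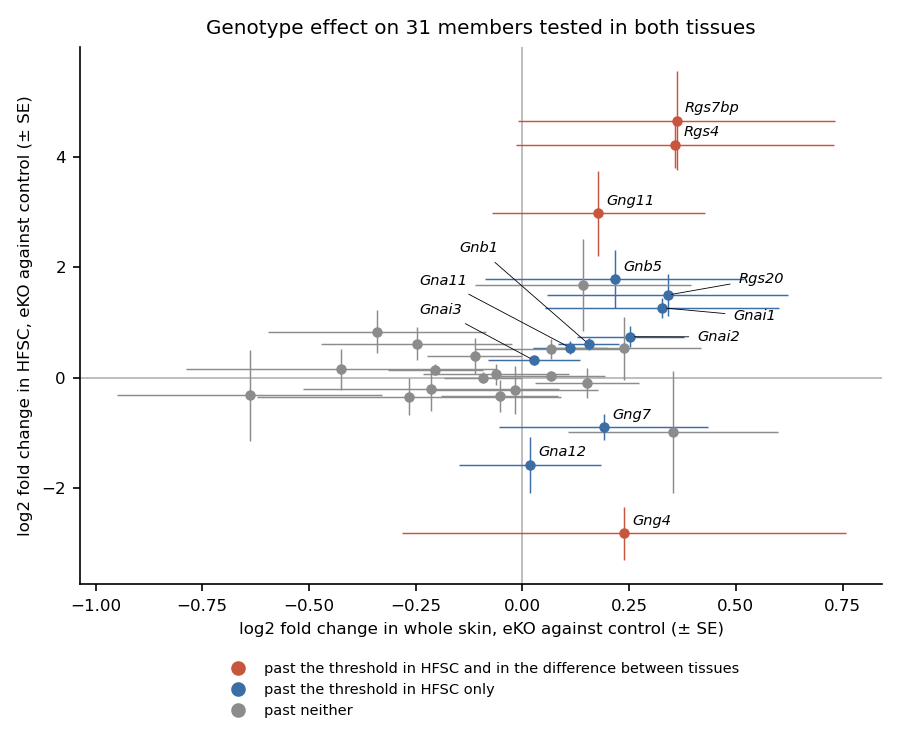
Log2 fold change, eKO against control, in whole skin (horizontal, ± SE) and in HFSC (vertical, ± SE) for the 31 members tested in both tables. Rgs7bp, Rgs4 and Gng11 lie at 4.66, 4.22 and 2.99 in HFSC and Gng4 at -2.82, while every skin value lies between -0.64 and 0.36.

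The skin libraries of both genotypes varied in hair matrix genes, and the members were called with that variation about as often as other genes, 1 of 44 (2.27%) against 2.22%. The summed hair matrix and shaft markers ran from 791 to 189033 over the 10 skin libraries, and a score averaging log2(value + 1) over that list ran from 2.64 in control replicate 1 to 12.4 in control replicate 4. In a fit of genotype plus this score, 1 of the 44 members passed: Rgs22, a large RGS protein known from testis, fell by 0.31 ± 0.05 on the log2 scale per unit of score (adjusted p = 0.0161), where 0.958% of all genes were called with a negative slope. Rgs22 had 73.8, 24.5, 10.4, 5.60 and 14.3 in controls and 51.7, 35.3, 17.3, 8.43 and 48.3 in eKO. Its highest value was in the control library with the lowest score and its lowest in the control library with the highest. The call was lost without control replicate 1 (slope -0.26, adjusted p = 0.109) or control replicate 4 (-0.31, 0.0856). At an unadjusted p under 0.05 there were 9 members, 20.5% of those tested and close to the background of 19.8%. All 9 had negative slopes (Rgs22, Gnb4, Gnai1, Gnao1, Rgs10, Rgs7bp, Gng2, Gng11 and Gnai2), where 1759 of the 3289 such genes in the whole table did. Gnai1, for example, ran from 735 in control replicate 4 to 2219 in eKO replicate 5 (slope -0.11 ± 0.03, adjusted p = 0.0817). Other cell types that vary with hair growth were not fitted.

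**Figure D5:**
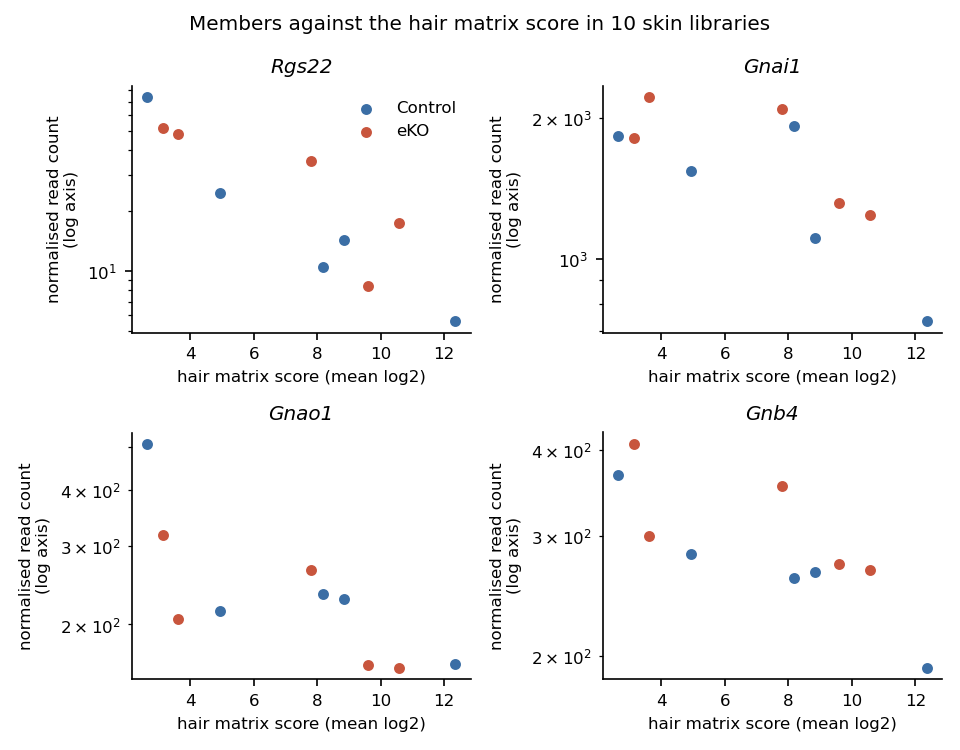
Normalised read count (log axis) of 4 members against the hair matrix score (log2 values averaged over the hair list) in 10 skin libraries, coloured by genotype. Rgs22 falls from 73.8 at a score of 2.64 to 5.60 at 12.4, and the same end libraries bound the range of Gnao1 at its top and of Gnai1 at its bottom.

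The enzymes that G proteins act on and their other partners were described with 9 lists that hold 73 genes besides members. In skin none of the 65 tested passed, against the 0.374% background. In HFSC 7 rose and 9 fell of the 54 tested, or 29.6%, against 19.4% of all genes. Adenylyl cyclases, which make cyclic AMP and differ in their control by G proteins, gave 1 higher and 3 lower of 7 tested. Adcy1, the most read of them, had 1243, 1072 and 1283 in controls and 335, 543 and 451 in eKO (log2 fold change -1.46 ± 0.17, adjusted p = 6.07e-05). Adcy6 fell by 1.60 ± 0.38 (adjusted p = 0.0114) and Adcy9 by 0.67 ± 0.20 (0.0323), while Adcy7 rose by 2.17 ± 0.39 (0.00184). Of the 53 listed genes tested for a difference between tissues, Adcy4 passed (2.14 ± 0.60, adjusted p = 0.0449). That is 1.89%, against 5.62% of all genes in that fit. In HFSC alone Adcy4 was not called (2.385 ± 0.854, adjusted p = 0.069). Its SE in the difference lies below that one, so its error and adjusted p there may be too small. The summed adenylyl cyclases were 1711 to 1863 in control and 939.5 to 1105 in eKO HFSC.

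Further down the cyclic AMP branch, the phosphodiesterases Pde4b (0.59 ± 0.15, adjusted p = 0.0135) and Pde4d (0.56 ± 0.17, 0.0353), which break cyclic AMP down, rose, with 0 lower of 6 tested. Of 9 genes of protein kinase A and its inhibitors, the inhibitor gene Pkib fell (-1.30 ± 0.27, 0.00507) and the regulatory subunit gene Prkar2a rose (0.50 ± 0.15, 0.0335). In the Gq branch, 1 of 8 rose and 3 fell, among them Plcb4, a phospholipase C beta, which fell by 1.12 ± 0.27 (0.0116), and Kalrn, an exchange factor, which rose by 0.58 ± 0.17 (0.028). In the G12 branch, the exchange factor gene Arhgef12 fell by 0.54 ± 0.10 (0.00236) and Rhob rose by 0.92 ± 0.23 (0.0148), of 6 tested. None of 3 effectors of beta-gamma was called, 1 of 8 chaperones and receptor-independent regulators fell (Ccdc88c, -0.89 ± 0.27, 0.0361), and 1 of 6 prenylation enzymes rose (Pggt1b, which attaches the geranylgeranyl lipid to gamma subunits, 0.35 ± 0.11, 0.035). Of the 5 R7 partner genes listed, those called were Rgs7bp and Gnb5, both members described above.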

How the data were processed

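Skin and HFSC came as separate tables from the authors, each library in its own column. The deposited values are a signal, gene read counts divided by a size factor for the library; whole reads were recovered from the steps of the low values, within a tolerance of 0.01. Per the submitters' processing notes the build was GRCm39 for both tissues, with featureCounts and DESeq2 named for skin; versions, aligner and strand setting are not given in the sources used here. All 16 columns were used. Genes were named by identifier from GENCODE M21, which also gave exon lengths. The members, gene lists and tests were chosen with earlier results of these data known.

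Each tissue was tested over its whole table by limma 3.58.1 (R 4.3.3, trended prior) on log2(value + 1). Genes entered where the value reached 10 in 5 skin or 3 HFSC libraries; fold changes are on that log2(value + 1) scale and understate changes of low genes. P-values are two-sided and adjusted by Benjamini and Hochberg, with a threshold of 0.05. The difference between tissues was a contrast over 4 group means, with the variance of each gene pooled over the libraries of both tissues. The alternatives were edgeR 4.0.16 and DESeq2 1.42.0 on recovered reads, pseudocounts of 0.5 and 5, no filter, library size scaling, a 1.5-fold minimum, the hair matrix score as covariate, a replicate block and leaving out each library. The scripts were tested on simulated data. Named were all members past the threshold, the highest member of each class in each tissue, members called by another tool, and up to 4 called genes per pathway list. No libraries of a group agreed within sampling noise. P-values measure the spread between libraries, which may be technical, since the labels do not say that they came from separate animals, and counting intervals and floors cover counting error only. Skin replicates are numbered in order of deposition.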

Additional observations from a re-analysis of the deposited data

Results flagged for a closer look

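In 4 of the 88 groups of 5 skin libraries examined, 1 library stood apart from the other 4, where chance gives about 1 in 20, or 4.4. Gnao1 was 508 in control replicate 1 against 163 to 234 in the other controls. Rgs22 was 73.8 in the same library against 5.60 to 24.5. Gnat1 was 33.4 in control replicate 3 against 7.60 to 13.2. Gng7 was 148 in eKO replicate 1 against 75.8 to 96.2. None of these genes was called in skin between genotypes.

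The effect of genotype differed between HFSC and skin, by the test of the difference, for 4 members: Rgs7bp (4.30 on the log2 scale), Rgs4 (3.87), Gng11 (2.81) and Gng4 (-3.06). These 4 passed the HFSC filter on low values only through the group in which they were high. Tissue cannot be told apart here from table, labelled age and sex composition by genotype.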

How the results depend on the processing

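No member result past the threshold changed direction under the settings tried, nor did Grk2 in both tissues or Rgs6 and Rgs9bp in skin; some members that were not called did, such as Gnaq, Gna13, Rgs12 and Rgs11 in HFSC and Gnai3, Gnaq and Rgs5 in skin. Of the 14 HFSC results, 158 of 196 refits kept their side of the threshold and 38 lost the call; for the 4 differences between tissues these were 81 and 11 of 92, and for skin 56 of 57 stayed, the other being Rgs9bp called by DESeq2, which gave 1 member in skin where limma gave 0. The 13 HFSC members became 4 (Gnai1, Gng4, Rgs4 and Rgs7bp) in a test against a 1.5-fold minimum, and 7 to 12 when 1 library was left out (8 without control replicate 1, 7 without control replicate 2); 6 were called in every such fit (Gnai1, Gna11, Gnb1, Gng4, Rgs4 and Rgs7bp). The 4 differences between tissues became 3 to 6, with 3 of them (Gng11, Rgs4 and Rgs7bp) in every fit without 1 library. The slope on the hair matrix score gave 0 to 2 members without 1 library, and 3 (Rgs22, Gng2 and Rgs10) without both skin libraries near 0 for the Y-linked genes, a setting chosen after seeing the data. That setting left 0 of the 44 members and 0 of all genes called in skin. Over all genes, calls in skin were 62, and ranged from 0 (1.5-fold minimum) to 656 (DESeq2), with 37 under no filter, 35 under library size scaling, 153 with the hair score and 10 to 57 without 1 library. In HFSC they were 2673, and ranged from 451 (1.5-fold minimum) to 3016 (DESeq2). For the difference between tissues they were 743, with 484 to 896 without 1 library, and for the hair score 368, with 128 to 467. The causes were not tested.

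HFSC libraries share the numbers 1 to 3 in their titles. Deviations of same-numbered libraries from their group means correlated at -0.06, -0.018 and -0.026, so the numbers were not taken to pair the libraries, and none of the 6 libraries correlated best with the library of its own number. With the replicate number as a block, 13 members were called in HFSC and 5 differed between tissues, with Gna12 and Gnb1 gained and Gng11 lost (adjusted p = 0.0727). For the difference between tissues this refit also used separate variances for skin and HFSC. The changed calls cannot be credited to the block alone. Depth limits the low members: Rgs6, Rgs18, Rgs7bp and Gng11 rest on 0 to 32 reads in one of the groups.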
